A study of Mus musculus with 12 samples.

Results

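The AP-1 family of transcription factors was followed in mouse lung through 10 genes, namely Fosl1, Fosl2, Fos, Fosb, Jun, Junb, Jund, Batf, Atf3 and Maff. Each gene was read from the transcript cluster, the set of array probes that stands for 1 gene, whose only gene symbol is that of the member. All 10 were found, with 1 cluster each, among the 23410 clusters with a symbol and the 35556 clusters of the array in all. The left lungs of 12 mice were measured on Affymetrix MoGene 1.0ST arrays, 1 array per mouse. The 4 groups of 3 mice were bleomycin-treated Fra-1-/- mice (KOT), bleomycin-treated Fra-1+/+ mice (WTT), PBS-treated Fra-1-/- mice (KOC) and PBS-treated Fra-1+/+ mice (WTC), and each mouse is named by its group and animal number. All were of the C57/129S background and labelled as female and 2 months old, an age that differs from the one in the study's methods, and lungs were taken on day 5 after instillation into the trachea of 30 µL of PBS, with 0.075 U of bleomycin in the treated groups. Bleomycin is a drug that breaks DNA and injures the lung. By the study's methods, both genotypes carried floxed alleles of Fosl1, the gene of Fra-1, and the knockouts also carried Meox2-Cre, which removes the floxed part in the cells of the embryo proper. The Fra-1+/+ mice therefore had floxed alleles too, and the deletion was not limited to 1 lung cell type.

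AP-1 is a dimer of basic leucine zipper proteins. Jun proteins pair with each other, with Fos proteins or with relatives such as the ATF, BATF and MAF proteins, and the pair binds short DNA sites in the control regions of genes for matrix proteases, cytokines and growth. Fos, Fosb, Jun and Junb are immediate early genes, whose transcription starts within minutes of a stimulus without new protein synthesis, and Fosl1 and Fosl2 (Fra-1 and Fra-2) usually follow later. In lung, these factors are known from responses to oxidants, toxicants and injury.

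The arrays were alike in scale, with medians between 7.14 and 7.22 log2 units and each array correlated with those of its own group at a mean r between 0.987 and 0.991. The mean log2 value of 9 lung markers such as Sftpc and Ager was 12.03 to 12.19 in KOT, 11.91 to 12.16 in WTT, 12.38 to 12.43 in KOC and 12.33 to 12.43 in WTC. On 12 of 12 arrays the Y-linked probes and Xist did not match the female sex of the labels, alike in all 4 groups.

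The promoters are shown for Atf3, Junb and Fos, whose transcripts passed the test after bleomycin in both genotypes, and for Jun, which passed in neither, as a description of their letters. Each sequence holds the 250 bases before the annotated transcription start from RefSeq (build GRCm38.p6), and capitals mark TGACG, the core of the cyclic AMP response element, or CGTCA, the same letters on the other strand, and in Jun the variant TGACATCA.
Atf3 promoter, chr1:191183334-191183583, minus strand: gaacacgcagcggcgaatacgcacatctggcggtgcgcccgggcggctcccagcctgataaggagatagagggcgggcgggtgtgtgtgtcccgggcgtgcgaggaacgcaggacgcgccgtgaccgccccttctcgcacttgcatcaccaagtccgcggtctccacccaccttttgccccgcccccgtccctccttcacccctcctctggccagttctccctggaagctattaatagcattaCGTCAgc
Junb promoter, chr8:84978749-84978998, minus strand: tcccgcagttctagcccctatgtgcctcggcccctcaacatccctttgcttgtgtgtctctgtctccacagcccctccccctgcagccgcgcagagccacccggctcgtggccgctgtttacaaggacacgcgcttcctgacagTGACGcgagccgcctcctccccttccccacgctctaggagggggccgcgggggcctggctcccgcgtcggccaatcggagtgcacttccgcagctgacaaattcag
Fos promoter, chr12:85473640-85473889, plus strand: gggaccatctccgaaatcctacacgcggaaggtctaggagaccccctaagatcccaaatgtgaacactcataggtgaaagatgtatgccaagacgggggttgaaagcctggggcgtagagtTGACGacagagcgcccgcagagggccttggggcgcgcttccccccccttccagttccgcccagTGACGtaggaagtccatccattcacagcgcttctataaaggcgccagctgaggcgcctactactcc
Jun promoter, chr4:95052223-95052472, minus strand: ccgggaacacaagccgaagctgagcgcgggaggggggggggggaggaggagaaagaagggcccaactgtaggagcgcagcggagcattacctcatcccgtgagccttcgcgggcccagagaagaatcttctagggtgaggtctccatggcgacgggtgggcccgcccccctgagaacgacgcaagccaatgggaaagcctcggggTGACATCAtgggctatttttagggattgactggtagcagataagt
The capitals lie 7 to 3 bases before the start in Atf3, 106 to 102 bases before it in Junb, at 129 to 125 and 66 to 62 bases before it in Fos, and 45 to 38 bases before it in Jun. The table held a promoter for 9 of the 10 members, all but Fosl1, and 3 promoters for Maff. Searched on both strands, TGACG stood in 6 of these 9 genes (Fos, Fosb, Junb, Batf, Atf3 and Maff) and not in Fosl2, Jun or Jund, against 17.8% of all 32851 promoters. A gene was counted if any of its promoters matched, whereas the percentages here are shares of single promoters, so the 2 are not alike. TGACATCA stood in Jun and Maff, against 2.93% of promoters. The full element TGACGTCA, which contains TGACG, stood in Maff alone (1.55% of promoters). Within the 250 bases searched, neither the AP-1 site TGACTCA (4.46%) nor the CArG box of the serum response element (1.47%) was present in any of the 9. Bases further upstream were not searched, so sites there are not excluded. TGACG did not follow the response over the members. Fosb and Batf have it and passed in neither genotype, and Maff has it and passed in WTT over WTC only. Fosl2 lacks it and passed in WTT over WTC. The motifs were chosen after the values had been seen, and a match is a description of the letters, not of binding.

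Fosl1 was higher after bleomycin in both genotypes, and of the treated mice the knockouts had the lower values. Its log2 value was 7.33, 7.32 and 7.28 in the KOT mice, 7.81, 8.19 and 8.32 in the WTT mice, 6.68, 6.26 and 6.56 in the KOC mice and 6.37, 6.76 and 6.86 in the WTC mice. Every bleomycin-treated mouse of either genotype lay above every PBS-treated mouse, and all KOT values of Fosl1 lay under all WTT values. Changes were called from 1 limma fit to all 12 arrays, where p, adjusted by Benjamini-Hochberg across the 23410 clusters with a symbol, lay under 0.05. By this test Fosl1 rose 1.75-fold in KOT over KOC (log2 fold change 0.81, SE 0.15, adjusted p = 0.00544) and 2.72-fold in WTT over WTC (1.44, SE 0.15, adjusted p = 2.33e-04). The spread among the 3 KOT mice (SD 0.02) was narrower than among the WTT (0.26), KOC (0.22) and WTC mice (0.25). Fosl1 was read at a low signal. All PBS values lay under the lowest array median of 7.14, and the KOT values lay just above the highest, 7.22. What this does to its fold changes and spread was not tested. The position of the Fosl1 probes relative to the deleted part is not given in the sources used here, so a signal in the knockouts does not check the deletion.

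**Figure D1:**
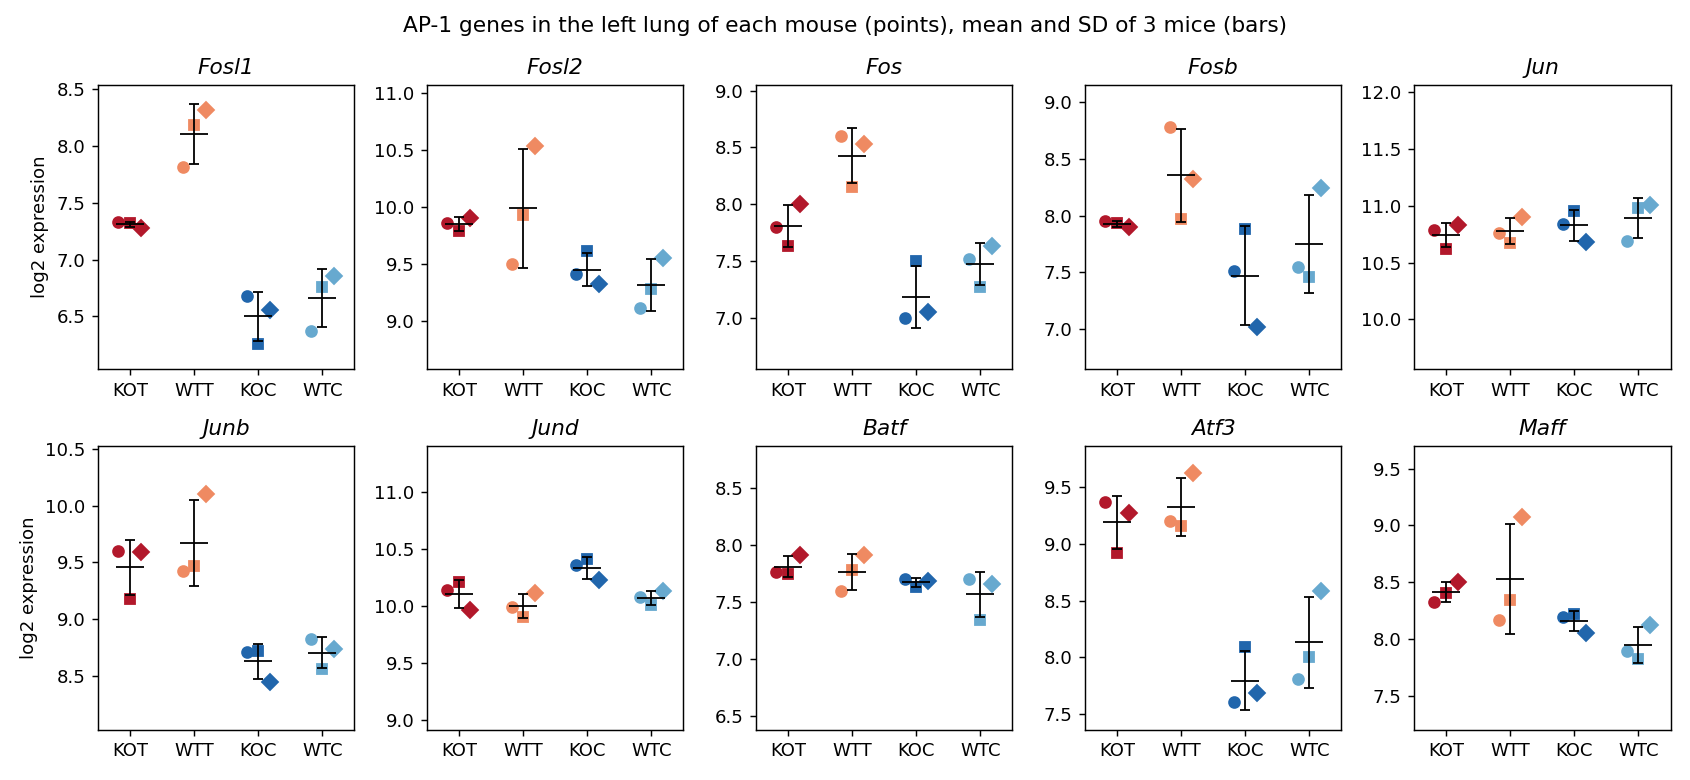
Log2 expression of the 10 AP-1 family members in every mouse, 1 panel per gene, with the groups KOT, WTT, KOC and WTC along the horizontal axis; points are mice and bars are group means, and all panels span the same number of log2 units. Fosl1, Fos, Junb, Atf3 and, by narrow margins, Maff separated bleomycin from PBS in both genotypes, and Jun did not move apart in any group.

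The other Fos genes had higher means after bleomycin in both genotypes, but of Fos, Fosb and Fosl2 only Fos passed the test in each. Fos, which encodes the first-described Fos protein, c-Fos, was measured at 7.80, 7.63 and 8.0 in KOT, 8.60, 8.15 and 8.53 in WTT, 7.0, 7.50 and 7.05 in KOC and 7.52, 7.27 and 7.63 in WTC. Each treated group lay above its PBS group without overlap, and all KOT values lay under all WTT values. Fos rose 1.55-fold in KOT over KOC (0.63, SE 0.16, adjusted p = 0.0225) and 1.93-fold in WTT over WTC (0.95, SE 0.16, adjusted p = 0.00217). Without KOC 53, KOC 67, KOT 72 or KOT 81 the knockout change of Fos lay between 0.53 and 0.63 and no longer passed (adjusted p between 0.0696 and 0.0984).

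Fosb, the gene of a c-Fos relative with a similar activation domain, was measured at 7.95, 7.94 and 7.90 in KOT, 8.78, 7.97 and 8.32 in WTT, 7.51, 7.89 and 7.02 in KOC and 7.55, 7.46 and 8.24 in WTC. The KOT mice lay above all KOC mice by a margin as small as 7.90 against 7.89, and the WTT mice overlapped with WTC 158. Neither difference passed, at 0.46 (SE 0.26, adjusted p = 0.271) in KOT over KOC and 0.61 (SE 0.26, adjusted p = 0.118) in WTT over WTC. Over both genotypes together, Fosb was higher after bleomycin by 0.53 (SE 0.18, adjusted p = 0.0421), a call that, with 1 mouse left out, was kept only without WTC 158, WTT 161 or KOC 55 (adjusted p between 0.0664 and 0.099 for the others).

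Fosl2, the gene of Fra-2, was measured at 9.86, 9.79 and 9.90 in KOT, 9.50, 9.93 and 10.54 in WTT, 9.41, 9.61 and 9.32 in KOC and 9.11, 9.27 and 9.55 in WTC. The KOT mice lay tightly above the KOC mice, whereas the WTT mice spanned more than 1 log2 unit and reached into the WTC range. The knockout difference was 0.40 (SE 0.21, adjusted p = 0.234), and the Fra-1+/+ difference of 0.68 (SE 0.21, adjusted p = 0.0379) passed. Without WTT 164 the Fra-1+/+ difference was 0.40 (adjusted p = 0.107), and the call was also lost without WTC 76, WTC 157, WTT 161, KOC 53 or KOT 72 (adjusted p between 0.0518 and 0.116).

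The Jun genes, whose products pair with Fos proteins, did not move together. Junb was measured at 9.60, 9.18 and 9.60 in KOT, 9.43, 9.47 and 10.11 in WTT, 8.71, 8.72 and 8.45 in KOC and 8.82, 8.56 and 8.73 in WTC. Every treated mouse lay above every PBS-treated mouse. Junb rose 1.78-fold in KOT over KOC (0.83, SE 0.18, adjusted p = 0.0093) and 1.95-fold in WTT over WTC (0.96, SE 0.18, adjusted p = 0.00318).

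Jun, which encodes c-Jun, was measured at 10.78, 10.62 and 10.83 in KOT, 10.76, 10.67 and 10.90 in WTT, 10.84, 10.96 and 10.68 in KOC and 10.69, 10.98 and 11.00 in WTC, and all 4 groups overlapped. The difference was -0.08 in KOT over KOC (95% interval -0.32 to 0.15, adjusted p = 0.676) and -0.11 in WTT over WTC (-0.35 to 0.12, adjusted p = 0.511), so a rise of Jun larger than 0.15 lay outside both intervals. Jund, a Jun protein that many resting cells make, was measured at 10.14, 10.21 and 9.97 in KOT, 9.99, 9.90 and 10.11 in WTT, 10.36, 10.42 and 10.23 in KOC and 10.08, 10.01 and 10.13 in WTC. The KOC mice were highest, above every KOT and every WTC mouse, and the other 3 groups overlapped. The difference of -0.23 in KOT over KOC did not pass (95% interval -0.42 to -0.04, unadjusted p = 0.0218, adjusted p = 0.101), nor did the difference of -0.07 in WTT over WTC (adjusted p = 0.639).

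Among the members outside the Fos and Jun genes, Atf3, a stress-induced factor that can repress or activate with its partner, showed the largest knockout response of the 10. It was measured at 9.37, 8.92 and 9.27 in KOT, 9.20, 9.15 and 9.62 in WTT, 7.61, 8.09 and 7.69 in KOC and 7.81, 8.0 and 8.58 in WTC. All 6 treated mice lay above all 6 PBS-treated mice, and the KOT and WTT mice overlapped. Atf3 rose 2.62-fold in KOT over KOC (1.39, SE 0.21, adjusted p = 0.00169) and 2.29-fold in WTT over WTC (1.19, SE 0.21, adjusted p = 0.00249).

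Maff, a small MAF protein without an activation domain of its own, was measured at 8.33, 8.40 and 8.5 in KOT, 9.08 in WTT 164 against 8.17 and 8.34 in the other WTT mice, 8.19, 8.22 and 8.05 in KOC and 7.89, 7.83 and 8.12 in WTC. Both treated groups lay above their PBS groups, by narrow margins apart from WTT 164. Maff passed in WTT over WTC (0.58, SE 0.19, adjusted p = 0.0439) and not in KOT over KOC (0.25, 95% interval -0.15 to 0.66, adjusted p = 0.413). Without WTT 164 the Fra-1+/+ difference was 0.31 (adjusted p = 0.0803), and the call was lost without any 1 of the 12 mice other than WTT 160 (adjusted p between 0.0536 and 0.133). Over both genotypes Maff was higher by 0.42 (SE 0.13, adjusted p = 0.0297), which was lost without WTC 76, WTC 157, KOC 53, KOC 67 or KOT 81 (adjusted p between 0.0506 and 0.0681). Batf, which pairs with Jun proteins in lymphocytes, was measured at 7.77, 7.75 and 7.92 in KOT, 7.60, 7.78 and 7.91 in WTT, 7.71, 7.63 and 7.69 in KOC and 7.70, 7.34 and 7.66 in WTC. Its differences of 0.13 in KOT over KOC (adjusted p = 0.461) and 0.20 in WTT over WTC (adjusted p = 0.227) did not pass. Every KOT mouse lay above every KOC mouse for Batf, by as little as 7.75 against 7.71, and the WTT and WTC mice overlapped.

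Counted over the 10 members, 4 were higher and 0 lower in KOT over KOC (Fosl1, Fos, Junb and Atf3), where 7.42% of all clusters passed as higher, and 6 were higher and 0 lower in WTT over WTC (Fosl1, Fos, Junb, Atf3, Fosl2 and Maff), where 10.2% passed as higher. Fosl1, Fos, Junb and Atf3 were thus higher in both genotypes, as were 5.61% of clusters. Averaged over both genotypes, 7 members were higher after bleomycin, with Fosb as the seventh, against 15.7% of clusters. Without regard to the test, all KOT values lay above all KOC values for 8 of 10 members (18.8% of clusters), and all WTT values above all WTC values for 5 of 10 (18.3% of clusters). The median difference over the members was 0.43 in KOT over KOC and 0.64 in WTT over WTC, against medians of 0.02 and 0.02 over all clusters. By LPE, the local-pooled-error test of the study's methods, which compares medians and was read at an adjusted p under 0.01, the counts were 4 higher in KOT over KOC (4.51% of clusters) and 6 higher in WTT over WTC (3.61% of clusters), and Fosb took the place of Maff in the WTT list. In these whole lungs, fewer cells of a type and less RNA per cell cannot be told apart, and the levels of marker lists moved with bleomycin too: the mean log2 value of 7 of 8 listed monocyte and macrophage markers was 10.05 to 10.71 in KOT, 10.24 to 10.93 in WTT, 9.34 to 9.43 in KOC and 9.31 to 9.47 in WTC. By limma, 5 of these 7 were higher and 1, Lyz2, lower in KOT over KOC (7.42% and 7.98% of clusters). In WTT over WTC, 6 were higher and Lyz2 lower (10.2% and 11.3% of clusters). The part of these cells in the rise of the members was not tested.

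**Figure D2:**
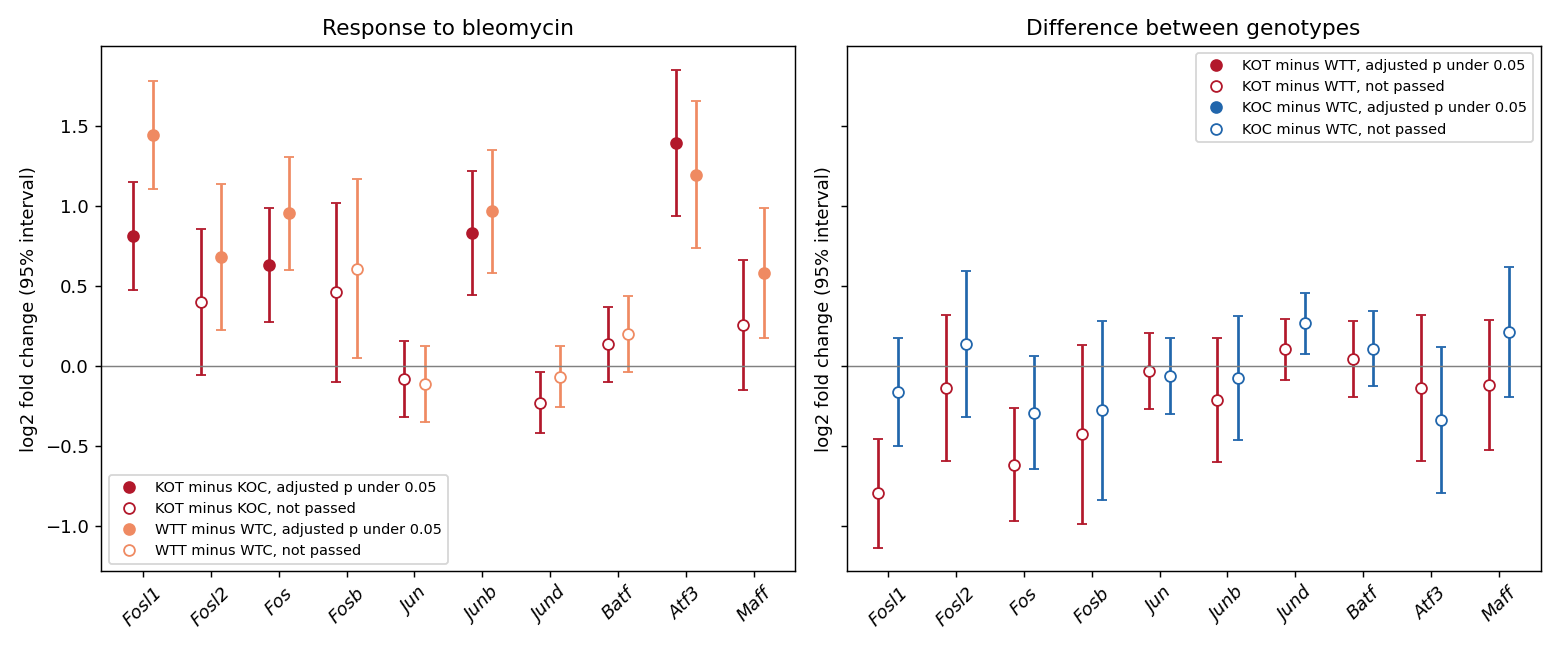
Log2 fold change with 95% limma interval for each member, with KOT over KOC and WTT over WTC in one panel and KOT over WTT and KOC over WTC in another; filled points passed at an adjusted p under 0.05. Atf3, Fosl1, Junb and Fos lie clear of 0 after bleomycin in both genotypes, and no point passed in the genotype comparison.

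Between the genotypes no member passed the test, either with bleomycin, where 0.0427% of all clusters passed in either direction, or with PBS, where 0.0128% did. In KOT against WTT, Fosl1 was lower by a difference of -0.80 (95% interval -1.13 to -0.46, unadjusted p = 2.73e-04, adjusted p = 0.16), and Fos by -0.62 (SE 0.16, unadjusted p = 0.00267, adjusted p = 0.273). The KOT mice lay below all WTT mice for Fosl1, Fos and Fosb, 3 members of 10, where 8.80% of all clusters lay lower in KOT without overlap. At an unadjusted p under 0.05, Fosl1 and Fos were the 2 members lower in KOT, where 6.32% of clusters were. By LPE, Fosl1 passed as lower (-0.87, adjusted p = 0.00368), where 0.171% of clusters did, and Fos did not (-0.72, adjusted p = 0.0352). The separation of Fosb was by a margin as small as 7.95 in KOT against 7.97 in WTT. Exact tests of 3 mice against 3 cannot go below p = 0.1. The other members differed between KOT and WTT by -0.43 (Fosb) to 0.10 (Jund), with adjusted p between 0.588 and 0.937.

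Neutrophil markers also had lower mean values in KOT than in WTT. The mean log2 value of 8 listed neutrophil markers was 7.62 to 9.0 in KOT and 8.42 to 10.55 in WTT. In KOT against WTT, 0 of the 8 passed the limma test, and 3 were lower at an unadjusted p under 0.05, beside 6.32% of clusters. The highest of all mice was WTT 164 at 10.55. The B cell and cardiac muscle markers went the other way and did not overlap between the groups. The mean log2 value of 7 B cell markers was 8.11 to 8.98 in KOT and 7.12 to 7.96 in WTT, and that of 8 cardiac muscle markers was 9.52 to 9.88 in KOT and 8.44 to 9.17 in WTT. That of 6 T cell markers was 7.95 to 8.22 in KOT and 7.36 to 7.89 in WTT, also without overlap. By limma, 0 of these passed. At an unadjusted p under 0.05, 4 B cell, 4 cardiac muscle and 2 T cell markers were higher in KOT, beside 4.27% of clusters. The part of these cells in the difference of Fosl1 and Fos was not tested. The animal numbers of all KOT mice are low (72 to 81) and those of all WTT mice high (160 to 164), so what they may stand for and the genotype cannot be told apart.

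With PBS, Jund was the member that differed most in unadjusted terms, higher in KOC than in WTC by 0.27 (SE 0.09, unadjusted p = 0.0106, adjusted p = 0.428). All KOC values lay above all WTC values in 6.88% of clusters, and 2.94% were higher in KOC at an unadjusted p under 0.05, which Jund alone of the members met. By LPE 0 members passed, against 1.85% of clusters. The other 9 members lay between -0.34 (Atf3) and 0.21 (Maff), with adjusted p between 0.605 and 0.938. Averaged over both treatments, Fosl1 (-0.48, unadjusted p = 9.56e-04, adjusted p = 0.15) and Fos (-0.45, unadjusted p = 0.002, adjusted p = 0.162) were the members with the smallest p, and 0 of 10 passed by limma, against 0.0342% of clusters. At an unadjusted p under 0.05 these 2 and Jund (0.18, unadjusted p = 0.0118) differed, 3 of 10 members against 15.1% of clusters.

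The question whether the response to bleomycin depends on genotype was put to the difference between the responses, KOT minus KOC less WTT minus WTC. It was -0.63 for Fosl1 (95% interval -1.11 to -0.15, unadjusted p = 0.0141, adjusted p = 0.914), and 0 of 10 members passed, where 0% of all clusters did. At an unadjusted p under 0.05, Fosl1 was the 1 member of 10 that differed, against 5.10% of clusters. The difference was -0.32 for Fos (unadjusted p = 0.184), 0.20 for Atf3 (adjusted p = 0.996) and -0.33 for Maff (adjusted p = 0.984), so Fos, Atf3 and Maff are not shown to respond differently in the knockout.

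Within the groups the same few mice carried the high values of several members. WTT 164 was the highest of the WTT mice for 8 of 10 members, WTC 158 the highest of the WTC mice for 8, and KOC 55 the highest of the KOC mice for 8. Over all clusters these mice were the highest of their group in 26.4%, 33.9% and 32.2%. In WTT the exceptions were Fos and Fosb, which were highest in WTT 160 (8.60 and 8.78). KOT had no such mouse, with 5 members highest in KOT 81, 4 in KOT 72 and 1 in KOT 80. WTT 164, WTC 158 and KOC 55 also had the highest means of their groups for the partner, immediate early, upstream and target genes listed below. For the other immediate early genes these means were 9.79 in WTT 164, 9.37 in WTC 158 and 9.32 in KOC 55. The trait is thus not particular to the AP-1 members.

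**Figure D3:**
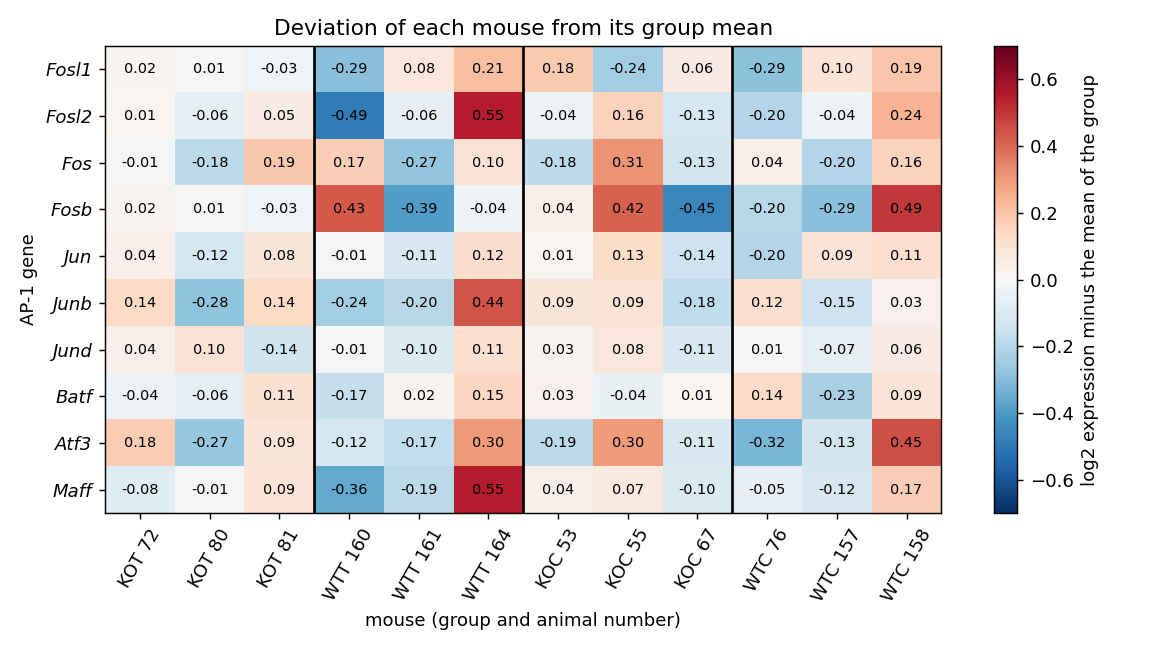
Deviation of each mouse from its group mean, in log2 units, for the 10 members (rows) and 12 mice (columns, grouped as KOT, WTT, KOC and WTC). WTT 164, WTC 158 and KOC 55 are above the mean of their group for most members, and WTT 160 is above it for Fos and Fosb.

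After the group means were removed, the order of the 45 pairs of members depended on the measure. Fosl2 and Maff had the highest Pearson r, 0.93 (exact permutation p = 0.00926 over the 1296 rearrangements of mice within groups, adjusted p = 0.208), with Spearman rho = 0.77 (exact permutation p = 0.0324, adjusted p = 0.365). Without WTT 160 and WTT 164, the 2 mice farthest from the median of Fosl2, r was 0.72. Fosl2 and Jun had the highest rho, 0.89 (exact permutation p = 0.00309, adjusted p = 0.139), with r = 0.61 (exact permutation p = 0.0463, adjusted p = 0.289) and 0.85 without the same 2 mice. Fosl2 and Atf3 had r = 0.72 (exact permutation p = 0.00694, adjusted p = 0.208) and rho = 0.76 (exact permutation p = 0.017, adjusted p = 0.301), and r = 0.92 without these mice. Jun and Atf3 had r = 0.80 (exact permutation p = 0.0262, adjusted p = 0.289) and rho = 0.78 (exact permutation p = 0.0201, adjusted p = 0.301), with r = 0.79 without WTC 76 and KOC 67. No pair passed after adjustment over the 45 pairs, nor without WTT 164, where Fosl2 and Maff had r = 0.80 (exact permutation p = 0.044, adjusted p = 0.59). The neutrophil markers, at 10.55 in WTT 164 against 8.42 in WTT 160 and 9.40 in WTT 161, moved with the WTT 164 values of Fosl2 and Maff, and their part was not tested.

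The clusters most like the members over the 12 arrays are given as a description by Pearson r, since they share the same 4 groups. For Fosl1 these were Tpm4, a tropomyosin (0.98), Loxl4, a matrix cross-linking enzyme (0.97), Card19 (0.96), Timm8a1 (0.96) and Alox5ap, a protein of leukotriene synthesis (0.96). All 5 were above PBS in both treated groups and lower in KOT than in WTT, by differences of -0.34 (Alox5ap) to -0.17 (Timm8a1). They were chosen by their r with Fosl1 on these same arrays, so this shared pattern follows from the choice. For Fos they were E030011O05Rik (0.97), Slc39a7 (0.96), Adamts3 (0.96), Tmed3 (0.94) and Syt8 (0.94). For Atf3 they were Sfn (0.96), Nrg1 (0.96), Hrh2 (0.96), Thbs1 (0.96) and Nnmt (0.96), with Junb, the nearest of the members, at 0.93. The other members stood further down for Fosl1, with Junb and Atf3 at 0.86, Fos at 0.84, Jun at -0.21 and Jund at -0.58.

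The other bZIP genes listed as AP-1 partners moved in both directions. Of 22 listed, 21 were measured. In KOT over KOC, 3 were higher and 2 lower, beside 7.42% and 7.98% of all clusters, among them Batf3 (0.44, adjusted p = 0.00851), which pairs with Jun proteins in dendritic cells, and Atf2 (-0.31, adjusted p = 0.0127), a kinase-activated partner of Jun. In WTT over WTC, 7 were higher and 3 lower, beside 10.2% and 11.3% of all clusters. Among them were Nfil3 (1.38, adjusted p = 0.00199), a bZIP repressor in immune cells, and Bach2 (-0.58, adjusted p = 0.0111), a transcriptional repressor in B cells. The mean of the 7 B cell markers was 7.12 to 7.96 in WTT and 7.95 to 9.57 in WTC. By limma, 3 of these 7 were lower in WTT over WTC, beside 11.3% of clusters. Their part in the fall of Bach2 was not tested. Over both genotypes 11 partner genes rose and 5 fell, where 15.7% and 16.3% of all clusters rose and fell. The median of the partner list was 0.19, against 0.02 over all clusters. Nfil3 was measured at 8.57, 8.08 and 8.79 in KOT and 8.59, 9.16 and 9.62 in WTT, and the groups overlapped. It differed by -0.64 in KOT against WTT (unadjusted p = 0.017, adjusted p = 0.379).

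Of 22 other immediate early genes, all measured, 8 were higher and 1 lower in KOT over KOC, where 7.42% of all clusters were higher and 7.98% lower. In WTT over WTC 10 were higher and 0 lower, where 10.2% of all clusters were higher and 11.3% lower. Egr2, an early induced zinc finger factor, rose by 1.14 in KOT over KOC (adjusted p = 0.00236) and by 1.32 in WTT over WTC (adjusted p = 7.95e-04). Myc, a factor of cell growth, rose by 1.11 in KOT over KOC (adjusted p = 0.0141) and by 1.60 in WTT over WTC (adjusted p = 0.00165), and Gadd45g, a stress-induced gene, by 1.08 in KOT over KOC (adjusted p = 0.0015) and by 0.89 in WTT over WTC (adjusted p = 0.0027). Egr2 and Myc therefore stood beside Fos and Junb among the early genes that were higher in both genotypes. Over both genotypes, 10 rose, 2 fell (Nr4a2 and Klf2) and 10 did not pass, where 15.7% of all clusters rose and 16.3% fell. The median was 0.23, against 0.02 over all clusters.

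The kinases, phosphatases and ternary complex factors upstream of AP-1 were 22 on the list and 18 measured. Dusp6, a phosphatase that switches off the kinase ERK and is itself induced by it, rose in both genotypes (0.63, adjusted p = 0.0121, in KOT over KOC, and 0.90, adjusted p = 0.0015, in WTT over WTC). Map2k6, a kinase that activates p38, fell in both (-0.61, adjusted p = 0.0109, in KOT over KOC, and -0.54, adjusted p = 0.0151, in WTT over WTC). Of the 18, 2 were higher and 2 lower in KOT over KOC, beside 7.42% higher and 7.98% lower of all clusters, so these counts are near the background. In WTT over WTC 4 were higher and 1 lower, beside 10.2% and 11.3% of all clusters.

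Genes with known AP-1 sites or known as Fra-1 targets were higher after bleomycin, with 12 of 19 measured higher and 0 lower in each genotype, where 7.42% of all clusters were higher in KOT over KOC and 10.2% in WTT over WTC. The median difference was 0.96 in KOT over KOC and 0.87 in WTT over WTC. Taken gene by gene, the median of the difference between the responses was -0.14, against -0.005 over all clusters. By limma 0 of the 19 passed, and 0 differed at an unadjusted p under 0.05, beside 5.10% of clusters. A smaller response of these genes in the knockouts is therefore not shown. Timp1, an inhibitor of matrix proteases, stood at 12.19, 11.30 and 12.44 in KOT, 11.99, 11.92 and 12.73 in WTT, 8.62, 8.55 and 7.90 in KOC and 8.32, 8.23 and 8.23 in WTC. All 6 treated mice lay above all 6 PBS-treated mice by more than 2 log2 units, and the 2 genotypes overlapped. Mmp10, a matrix protease, was measured at 6.93, 6.95 and 7.05 in KOT and 7.25, 7.36 and 7.20 in WTT, without overlap, and its difference of -0.29 did not pass (unadjusted p = 8.5e-04, adjusted p = 0.21). With PBS the knockouts were lower without overlap too, at 6.52, 6.49 and 6.51 in KOC and 6.64, 6.64 and 6.65 in WTC. Of all clusters, 8.80% lay lower without overlap in KOT than in WTT, and 9.37% in KOC than in WTC. By limma, 0 genes of the 4 lists passed in KOT against WTT or in KOC against WTC. At an unadjusted p under 0.05, 3 partner genes, 3 immediate early genes and 1 target gene were lower in KOT than in WTT, beside 6.32% of all clusters, and 1 target gene was higher in KOC than in WTC, beside 2.94%. The share of target genes, 1 of 19, is near the background in both. The mean log2 value of the target list was 9.65, 9.17 and 9.95 in KOT, 9.27, 9.64 and 10.34 in WTT, 8.36 to 8.47 in KOC and 8.31 to 8.49 in WTC, and WTT 164 was again the highest mouse.

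**Figure D4:**
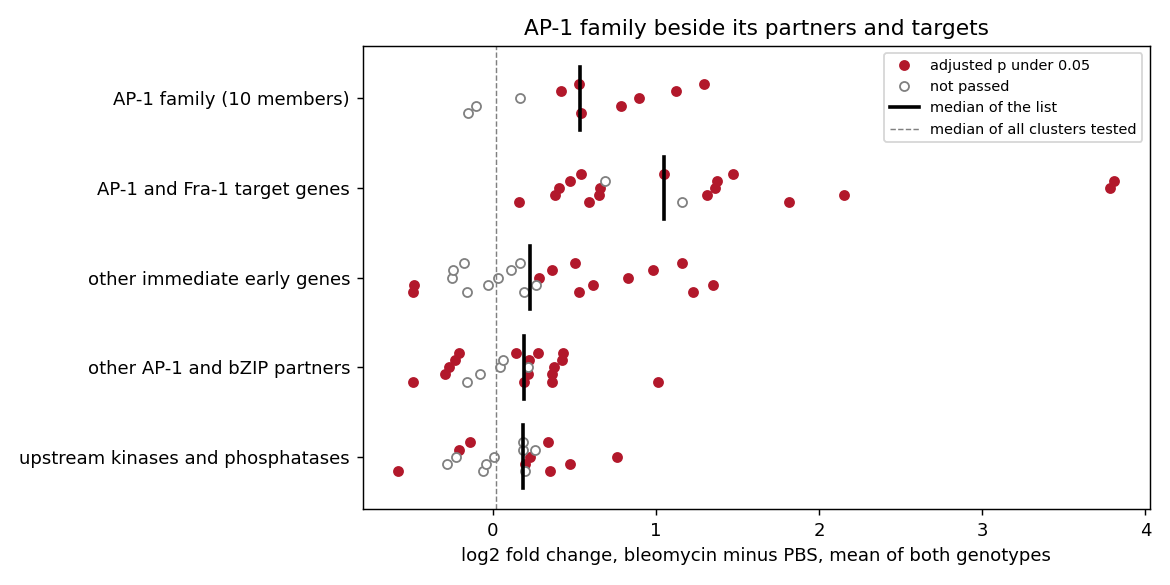
Log2 fold change after bleomycin, averaged over both genotypes, of the 10 members and of the genes of each list, 1 point per gene, filled where the adjusted p was under 0.05; thick bars are list medians and the dashed line is the median of all clusters tested. The AP-1 and Fra-1 target list lies furthest to the right, with a median of 1.05, and the partner list, with a median of 0.19, spreads to both sides of 0. The part of cell content in these changes was not tested.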

How the data were processed

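The left lungs of 12 mice, 3 per group, gave total RNA for 1 array each. By the labels and the study's methods, the authors applied quantile normalization across arrays and RMA (median polish, run in Affymetrix Power Tools) per transcript cluster, and the deposited values are on the log2 scale; tool versions and the genome build are not given in the sources used here. Quantile normalization makes the arrays alike in distribution, so a change is relative to the other clusters of the array. No further normalization was applied.

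Groups came from the labels alone. A mean per group was fitted with limma 3.58.1 in R 4.3.3 to all 12 arrays, with 8 residual degrees of freedom, so the SE of a comparison also holds the spread of the other groups. P-values are two-sided and Benjamini-Hochberg adjusted over the 23410 clusters with a symbol. Fold changes are differences of mean log2 values. LPE was written anew in R with 100 intensity bins and a spline of 10 degrees of freedom. Covariation among mice used exact permutation within groups. Scripts were tested on simulated data. Promoters came from RefSeq, GRCm38.p6, read with Python and pandas. Precision is limited by the number of arrays.

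The genes named are the 10 members, the 5 clusters most like Fosl1, Fos and Atf3, and up to 4 genes of each list with the smallest p in the comparison described. Nfil3 and Mmp10 in KOT against WTT have the smallest p of their lists there. The members, lists and rule were chosen with earlier results of these data known. Alternatives were LPE and medians, a threshold of 0.01, fits with array weights, with trended and robust variances, or of the compared groups only, renormalization by cyclic loess or to equal medians, testing every cluster of the array or those whose mean reached 6 in some group, a low or high animal number as a covariate, and leaving out each mouse. RT-qPCR and histology were not analysed here.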

Additional observations from a re-analysis of the deposited data

Results flagged for a closer look

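The difference of group means between genotypes had opposite signs with bleomycin and with PBS for Fosl2 and for Maff. For Fosl2, every KOT mouse lay below the WTT mean and every KOC mouse lay above the WTC mean, and the difference in KOT against WTT less that in KOC against WTC was -0.28 (interaction term in limma, adjusted p = 0.991). For Maff the same quantity was -0.33 (adjusted p = 0.984). The test of the difference itself passed for neither gene. For the means, the opposite signs rest on WTT 164, at 10.54 for Fosl2 and 9.08 for Maff the highest mouse of all. Without it KOT lay above WTT by 0.14 for Fosl2 (adjusted p = 0.77) and by 0.16 for Maff (adjusted p = 0.602). By medians KOT lay above WTT by 0.06 for Maff. For Fosl2 the signs stayed opposite by medians, at -0.07 in KOT against WTT and 0.14 in KOC against WTC.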

How the results depend on the processing

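The counts of members that passed kept within 1.5 times their main value under every alternative run except 2. By LPE, 1 member (Fosl1) passed in KOT against WTT where limma called 0, and at an adjusted p under 0.01 the count over both genotypes was 4 in place of 7. With each mouse left out in turn, the count was 3 to 4 in KOT over KOC, 4 to 6 in WTT over WTC and 5 to 7 over both genotypes, and 0 throughout in KOT against WTT, in KOC against WTC, in the difference between responses and in the genotype comparison over both treatments. Fosl1, Junb and Atf3 in both responses and Fos in WTT over WTC stayed past the adjusted p of 0.05 under every alternative. In WTT over WTC, Fosl2 and Maff did not pass with only the arrays of the comparison (adjusted p = 0.11 and 0.125), over all clusters of the array (0.0653 and 0.0739) or with a term for animal numbers (0.116 and 0.103), and Maff not by LPE (0.179). Only the WTC group held both low and high animal numbers. The term for them therefore gave the same values as leaving out WTC 76 and is not a separate check. Fosb over both genotypes did not pass with array weights (0.0538), moderation that was trended and robust (0.053), all clusters (0.0689) or the term for animal numbers (0.0885). Maff over both genotypes did not pass over all clusters (0.0503) or with that term (0.0573). Jund passed as lower with array weights alone, in KOT over KOC (-0.25, adjusted p = 0.0185) and over both genotypes (-0.16, adjusted p = 0.0441). Fosl2 in KOT over KOC passed with only the arrays of the comparison (adjusted p = 0.0294), and Fosb in WTT over WTC passed by LPE (0.77, adjusted p = 0.0039) and without WTC 158 (0.85, adjusted p = 0.0417). The cause was not tested. By medians, Junb (0.12), Atf3 (0.07), Maff (0.06) and Jun (0.02) lay higher in KOT than in WTT, where their means lay lower, and Batf (-0.02) lay lower where its mean lay higher, with no call either way. No paired analysis was possible because the animal numbers differ in every group. The other clusters of a member could not be tried, as each had 1. No pair of members passed for covariation under cyclic loess, equal medians or without WTT 164, all chosen after seeing the data. With 3 mice a group, small differences of the less even genes, such as Fosb (SE 0.26), were not detectable.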
